A study of Homo sapiens with 12 samples.

Results

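The 10 genes of bone morphogenetic protein (BMP) signalling and its inhibitor of DNA binding (ID) targets described here were measured in SK-UT-1 cells, an established uterine leiomyosarcoma line, treated with a BET bromodomain inhibitor. The genes were named by role and not by their values, but with earlier results of these data known. They were the ligands BMP2 and BMP4, the receptors BMPR1A and BMPR2, the transducer SMAD1, the inhibitory SMAD6, and ID1, ID2, ID3 and ID4. All 10 had a value among the 22784 gene symbols of the expression table, and 9 of the 10 were high enough to be tested, the exception being BMP2. The cells received DMSO (the solvent control), 5 µM JQ1 or 5 µM I-BET-762 for 48 h, and carried no other allele or agent in the labels. Total RNA was sequenced from 3 DMSO libraries (13, 14 and 15), 4 JQ1 libraries (17 to 20) and 3 I-BET-762 libraries (21, 22 and 23). Of the 12 libraries in the labels, DMSO 16 and I-BET-762 24 were not analysed here. Everything was measured in 1 line grown in culture, and nothing states that the libraries of a group came from separate experiments, so p-values measure the spread between these libraries, which may be technical.

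BMP ligands bind pairs of type I and type II receptor kinases, which phosphorylate SMAD1, SMAD5 and SMAD9. These join SMAD4, enter the nucleus and bind target genes, among which the ID genes are the most widely used readouts and SMAD6 is a feedback inhibitor. ID proteins have a helix-loop-helix domain but no basic region, so they hold E proteins such as TCF3, TCF4 and TCF12 in pairs that cannot bind DNA, and they are known for keeping many cell types, muscle lineages included, from differentiating. JQ1 and I-BET-762 occupy the acetyl-lysine pocket of BET proteins, which bind acetylated chromatin.

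With JQ1, all 4 ID genes rose between 2.03-fold (ID1) and 2.71-fold (ID2), while BMP4 fell 3.67-fold. With I-BET-762, ID2 and ID3 rose by 1.81-fold and 1.59-fold, BMP4 fell 4.61-fold, and ID1 and ID4 were each 1.31-fold higher, under the 1.5-fold threshold. The receptors and both SMAD genes differed from DMSO by less than 1.5-fold with either inhibitor. ID1 and ID4 were higher with JQ1 than with I-BET-762 by 1.55-fold and 1.81-fold. In these bulk samples, a change in the share of cells that express a gene and a change in RNA per cell cannot be told apart.

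The depth was 35564586 to 39658989 reads on genes per library, and the ranges of the 3 groups overlapped. Values are DESeq2-normalized counts, or log2 of the normalized count plus 1. A gene was called changed at an adjusted p under 0.05 and a fold change over 1.5 in limma. JQ1 libraries were less alike than those of the other groups, with pairwise chi-square values per gene of 5.38 to 22.1, against 2.77 to 7.32 for DMSO and 3.34 to 5.21 for I-BET-762. The lowest JQ1 value was that of libraries 17 and 19. Libraries 18 and 20 were not alike (21.5), so over all genes the JQ1 libraries did not form 2 pairs. ID1 and SMAD6 divided libraries 17 and 19 from 18 and 20. Of 9 smooth muscle markers, 7 were tested. The summed level of the 8 with a value was 20501 to 21136 normalized counts with DMSO, 10661 to 11269.9 under JQ1 and 11821 to 12373 under I-BET-762, MYOCD was at 0 or near it, and MYH11 had no value in the table. With each inhibitor, 6 of the 7 were called lower, where 22.8% of all genes were called lower with JQ1 and 17.9% with I-BET-762. The 4 mesenchymal markers summed to 128218 to 137405, 159579.8 to 171870.0 and 136644 to 140180.5 normalized counts in the same order, most of it VIM, which was not called. The other 3, COL1A1, COL1A2 and PDGFRB, were called lower with JQ1, and COL1A1 and PDGFRB also with I-BET-762. Epithelial markers summed to 1212 to 1272, 511 to 602 and 497 to 545, and the endothelial and blood markers had no more than 4 reads in any library. All 4 tested epithelial markers were called lower with JQ1 and 3 of them with I-BET-762, so lower markers were not particular to smooth muscle. The part of these markers in the results for BMP and ID genes was not tested.

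The reference sequence around the start sites of the ID genes and SMAD6 is shown because these are the targets on which BMP-activated SMADs act. Each window runs 5′ to 3′ on the gene's own strand from 250 bases before the annotated start to 50 bases of the transcript (RefSeq, GRCh38.p14), at chr20:31605039-31605338 (plus strand) for ID1, chr2:8681806-8682105 (plus) for ID2, chr1:23559452-23559751 (minus) for ID3, chr6:19837120-19837419 (plus) for ID4 and chr15:66701986-66702285 (plus) for SMAD6. Capitals mark CCAAT (the CCAAT box), as well as TATAAA (the TATA box) and the motif GTCTAGAC, a palindrome made of a pair of GTCT SMAD boxes, each searched on both strands.
ID1: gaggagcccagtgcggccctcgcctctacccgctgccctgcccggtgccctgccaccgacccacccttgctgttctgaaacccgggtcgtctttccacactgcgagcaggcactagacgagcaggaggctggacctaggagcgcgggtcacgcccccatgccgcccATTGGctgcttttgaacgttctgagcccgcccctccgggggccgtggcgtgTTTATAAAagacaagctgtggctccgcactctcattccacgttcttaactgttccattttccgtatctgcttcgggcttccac
ID2: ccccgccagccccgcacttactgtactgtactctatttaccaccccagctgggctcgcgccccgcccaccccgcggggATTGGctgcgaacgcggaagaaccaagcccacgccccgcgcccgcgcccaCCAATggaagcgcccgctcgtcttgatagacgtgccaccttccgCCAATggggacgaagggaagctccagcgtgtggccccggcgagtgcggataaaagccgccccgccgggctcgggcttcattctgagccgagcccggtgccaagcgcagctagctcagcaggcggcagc
ID3: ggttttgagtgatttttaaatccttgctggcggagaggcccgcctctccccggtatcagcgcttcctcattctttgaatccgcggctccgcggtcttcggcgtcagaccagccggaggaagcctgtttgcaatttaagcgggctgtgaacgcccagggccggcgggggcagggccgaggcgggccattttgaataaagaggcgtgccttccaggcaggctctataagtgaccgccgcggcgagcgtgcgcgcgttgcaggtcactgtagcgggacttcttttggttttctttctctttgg
ID4: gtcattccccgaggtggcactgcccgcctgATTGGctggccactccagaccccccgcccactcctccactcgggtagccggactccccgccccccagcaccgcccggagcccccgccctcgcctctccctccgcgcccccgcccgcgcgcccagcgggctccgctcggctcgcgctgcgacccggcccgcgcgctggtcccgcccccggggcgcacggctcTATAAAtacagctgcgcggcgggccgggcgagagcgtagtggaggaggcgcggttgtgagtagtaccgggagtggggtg
SMAD6: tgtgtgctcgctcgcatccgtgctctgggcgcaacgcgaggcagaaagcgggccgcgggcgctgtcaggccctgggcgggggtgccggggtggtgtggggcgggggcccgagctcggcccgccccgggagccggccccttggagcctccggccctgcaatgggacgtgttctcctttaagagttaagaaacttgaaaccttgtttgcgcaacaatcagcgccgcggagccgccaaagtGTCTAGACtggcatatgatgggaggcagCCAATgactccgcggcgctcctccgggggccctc

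The ID2 window held 3 CCAAT matches and no TATAAA. The windows of ID1 and ID4 each held 1 CCAAT match, at positions -84 and -220 from the start, together with TATAAA matches close upstream of it (2 overlapping ones in ID1, 1 at position -29 in ID4). ID3, the most highly expressed of the 4 ID genes per kb, held none of the 3 motifs. SMAD6 held GTCTAGAC at position -12, a motif found in 0.202% of 35116 promoters of the same length, against 34.6% for CCAAT and 11.5% for TATAAA. The motif GGCGCC, the core of a BMP-responsive SMAD motif, was in none of the 4 ID windows and in 19.2% of all promoters, and CACGTG, an E-box, was in none of them either and in 7.26% of all. These matches describe letters within these windows and say nothing of binding here. Sequence further upstream or downstream was not searched, so a motif absent from a window may lie outside it. BMP2, BMP4, BMPR1A, BMPR2 and SMAD1 are not shown, since no other result turns on their promoters. The RefSeq start of ID2 lies inside the longer Gencode gene.

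In the Gencode V44 annotation of GRCh38, ID1 is ENSG00000125968.9 (chr20:31605283-31606515, plus strand), ID2 is ENSG00000115738.10 (chr2:8678845-8684461, plus), ID3 is ENSG00000117318.9 (chr1:23557926-23559501, minus) and ID4 is ENSG00000172201.12 (chr6:19837370-19842197, plus). BMP2 is ENSG00000125845.7 (chr20:6767686-6780246, plus), BMP4 is ENSG00000125378.16 (chr14:53949736-53958761, minus), BMPR1A is ENSG00000107779.15 (chr10:86756596-86932825, plus) and BMPR2 is ENSG00000204217.16 (chr2:202376327-202567751, plus). SMAD1 is ENSG00000170365.10 (chr4:145481194-145559176, plus) and SMAD6 is ENSG00000137834.15 (chr15:66702236-66782849, plus). All 10 are protein-coding genes, and the deposited values sum reads over exons of each. Exons of SMAD1 overlap those of SMAD1-AS1 on the opposite strand over 376 bases, those of ID2 overlap ID2-AS1 over 145 bases, and those of BMP4 overlap an unnamed gene over 506 bases. BMPR2 overlaps another gene on its own strand over 57 bases. The strand setting of the counting is not given in the sources used here. BMPR1A shares exon sequence with its pseudogenes BMPR1AP1 and BMPR1AP2, so its count is less certain than those of ID1, ID3, ID4, BMPR2 and SMAD6, for which no 75-base stretch tested occurred in another gene's transcript.

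Of BMP2 and BMP4, BMP4 was the one high enough to be tested. BMP4 had 141, 134 and 147 normalized counts in DMSO libraries 13 to 15. It had 33.0, 53.3, 37.0 and 30.4 in JQ1 libraries 17 to 20. It had 53.1, 29.1 and 16.7 in I-BET-762 libraries 21 to 23. Every treated library was below every DMSO library, and the treated groups overlapped. BMP4 fell by 1.88 on the log2 scale with JQ1 (SE 0.29, adjusted p = 2.68e-05) and by 2.21 with I-BET-762 (SE 0.31, adjusted p = 1.60e-05). Between the inhibitors the BMP4 difference was 0.33 (95% interval -0.29 to 0.95, adjusted p = 0.435), and the value was -0.07 without I-BET-762 library 23.

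BMP2, a ligand of the same subfamily as BMP4, had 0 reads in all 3 DMSO libraries. It had 4, 1, 7 and 3 reads in JQ1 libraries 17 to 20 and 2, 2 and 3 in I-BET-762 libraries 21 to 23. A count of 0 allows up to 3 reads, 2.81 normalized counts on average per DMSO library, and JQ1 libraries 18 and 20 and all I-BET-762 libraries did not exceed 3 reads either. No fold is therefore given for BMP2, which was too low to be tested. This floor covers counting error only.

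BMPR1A, a type I receptor for BMP2 and BMP4, was abundant in every library. DMSO libraries 13 to 15 had 6171, 6765 and 6613 normalized counts of BMPR1A. JQ1 libraries 17 to 20 had 7179.7, 8317, 7132 and 7193. I-BET-762 libraries 21 to 23 had 7666, 7784 and 7496. All treated libraries were above all DMSO libraries. The log2 difference of BMPR1A from DMSO was 0.19 with JQ1 (SE 0.06, adjusted p = 0.00618) and 0.23 with I-BET-762 (SE 0.06, adjusted p = 0.00343), both under the fold threshold. When libraries were rescaled to equal totals, the JQ1 value was 0.01 (adjusted p = 0.886).

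BMPR2, the type II receptor that activates BMPR1A, differed in the opposite direction. It had 3667, 3575 and 3611 normalized counts in DMSO libraries 13 to 15. It had 2803, 2634, 3121 and 2801 in JQ1 libraries 17 to 20. It had 3320.0, 3162 and 3363 in I-BET-762 libraries 21 to 23. The 3 groups did not overlap, with DMSO highest and JQ1 lowest. BMPR2 differed from DMSO by -0.35 with JQ1 (SE 0.05, adjusted p = 2.62e-05) and by -0.14 with I-BET-762 (SE 0.06, adjusted p = 0.0464) on the log2 scale. The I-BET-762 value lost its adjusted p under some alternatives, the highest being 0.167. BMPR2 was lower with JQ1 than with I-BET-762 by -0.21 (95% interval -0.33 to -0.09, adjusted p = 0.00976), also under the fold threshold.

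SMAD1, a receptor-activated SMAD, had 984, 1100.2 and 1099 normalized counts in DMSO libraries 13 to 15. It had 683, 829, 784 and 789 in JQ1 libraries 17 to 20. It had 784, 756 and 739 in I-BET-762 libraries 21 to 23. The treated groups overlapped each other and lay below DMSO. SMAD1 differed from DMSO by -0.46 with JQ1 (SE 0.07, adjusted p = 2.75e-05) and by -0.48 with I-BET-762 (SE 0.08, adjusted p = 5.61e-05). Both were under the fold threshold, although with equal totals SMAD1 reached -0.65 with JQ1 and was called. Between the inhibitors the difference was 0.02 (95% interval -0.13 to 0.17, adjusted p = 0.874), and its sign changed with the scaling and with the libraries used.

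SMAD6, which blocks receptor and SMAD1 activity, had 1124, 923 and 996 normalized counts in DMSO libraries 13 to 15. JQ1 libraries 17 and 19 had 913 and 826, just under the lowest DMSO library, and libraries 18 and 20 had 589.7 and 648. I-BET-762 libraries 21 to 23 had 891, 953 and 985. The I-BET-762 libraries overlapped with DMSO, and the JQ1 libraries did not. SMAD6 differed from DMSO by -0.46 with JQ1 (SE 0.12, adjusted p = 0.00265), under the fold threshold, and by -0.10 with I-BET-762 (95% interval -0.37 to 0.17, adjusted p = 0.513). Between the inhibitors SMAD6 differed by -0.36 (95% interval -0.62 to -0.11, adjusted p = 0.0358), under the fold threshold. Over the alternatives this value ran from -0.61, called without JQ1 libraries 17 and 19, to -0.12 without libraries 18 and 20, with adjusted p up to 0.248. Against DMSO, the JQ1 value was -0.71, and called, without libraries 17 and 19, and was also called at -0.65 with equal totals.

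ID1, the first of the 4 ID targets, had 12949.9, 14250.2 and 14617 normalized counts in DMSO libraries 13 to 15. JQ1 libraries 17 and 19 had 36582 and 34887, while libraries 18 and 20 had 23073 and 21679. I-BET-762 libraries 21 to 23 had 17874, 18135 and 18757. The 3 groups did not overlap, but the JQ1 libraries fell into a higher and a lower pair. ID1 rose by 1.02 on the log2 scale with JQ1 (SE 0.14, adjusted p = 7.38e-06), and by 0.68 without libraries 17 and 19, where it was still called. With I-BET-762 the ID1 difference was 0.39 (SE 0.15, adjusted p = 0.0337), and the adjusted p reached 0.135 over the alternatives.

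ID2 had 8583, 9849.6 and 9880.2 normalized counts in DMSO libraries 13 to 15. It had 25122, 28895, 25791 and 22562 in JQ1 libraries 17 to 20. It had 17227, 17847 and 16004 in I-BET-762 libraries 21 to 23. No library of one group overlapped with another group, and JQ1 was the highest. ID2 rose by 1.44 with JQ1 (SE 0.07, adjusted p = 7.70e-11) and by 0.85 with I-BET-762 (SE 0.08, adjusted p = 1.63e-07).

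ID3 had the highest level of the ID genes in every group. DMSO libraries 13 to 15 had 24337, 24709 and 24391 normalized counts of ID3. JQ1 libraries 17 to 20 had 50079.8, 47916, 53833 and 51013, and I-BET-762 libraries 21 to 23 had 40403, 38121 and 38019. All 3 groups were apart. ID3 rose by 1.05 with JQ1 (SE 0.05, adjusted p = 3.90e-11) and by 0.67 with I-BET-762 (SE 0.05, adjusted p = 4.12e-08). With equal totals the I-BET-762 value of ID3 was 0.57 and no longer over the fold threshold.

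ID4 had 4460.0, 5039 and 5049.8 normalized counts in DMSO libraries 13 to 15. It had 12449.6, 11578, 12229 and 9949 in JQ1 libraries 17 to 20. It had 6209, 6494 and 6383 in I-BET-762 libraries 21 to 23. The I-BET-762 libraries lay between the other groups and closer to DMSO. ID4 rose by 1.25 with JQ1 (SE 0.07, adjusted p = 1.75e-10), while with I-BET-762 its difference was 0.39 (SE 0.07, adjusted p = 2.50e-04), under the fold threshold.

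**Figure D1:**
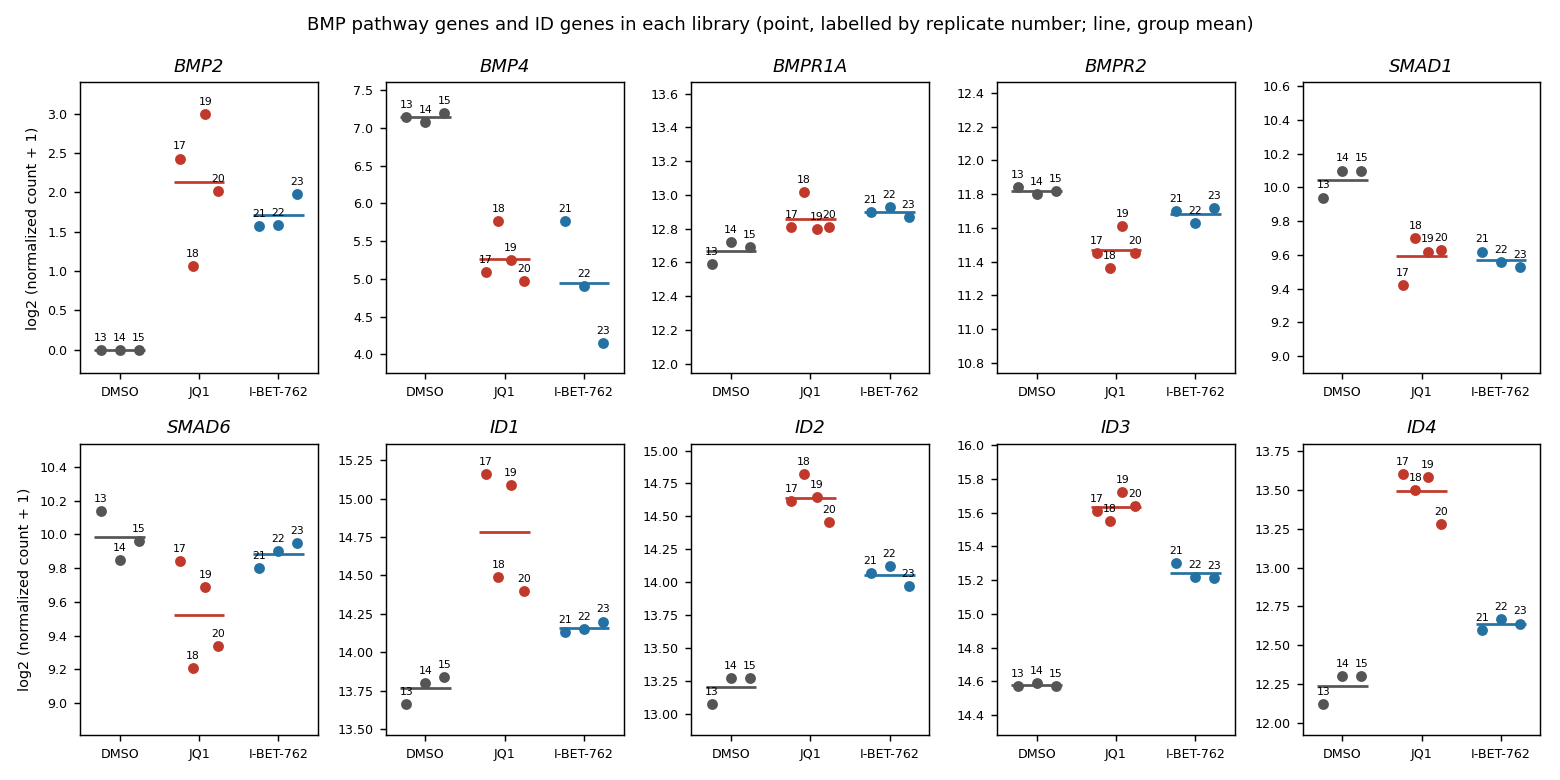
Log2 of the normalized count plus 1 (vertical axis, scaled per panel) for the 10 genes in each library; points carry the library number, are grouped by treatment and coloured by group, and lines are group means. All 4 ID genes stand higher in every JQ1 library than in any DMSO or I-BET-762 library. BMP4 is lower in every treated library than in any DMSO library. ID1 divides JQ1 libraries 17 and 19 from 18 and 20. How many of all genes part the groups in these ways was not counted.

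With JQ1, 5 of the 9 tested genes were called, 4 higher (the ID genes) and 1 lower (BMP4), where 36.1% of all 14839 tested genes were called, 13.3% higher and 22.8% lower. By adjusted p alone all 9 passed, beside 71.7% of all genes. With I-BET-762, 3 of 9 were called, ID2 and ID3 higher and BMP4 lower, where 26.9% of all genes were called, 8.96% higher and 17.9% lower. By adjusted p alone 8 of 9 passed, SMAD6 being the exception, beside 61.1% of all genes. The median log2 difference of the 9 genes was 0.19 under JQ1 and 0.23 under I-BET-762, beside 0.01 and -0.00 over all genes, and these medians cover members that moved in opposite directions. Both comparisons share the DMSO libraries. Rescaling to equal totals moved the median of all genes to -0.18 under JQ1 and -0.10 under I-BET-762, and the share of calls that were higher from 36.9% to 22.3% and from 33.3% to 24.3%. The ID genes stayed higher with both inhibitors, and BMP4 lower, under both rescalings.

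**Figure D2:**
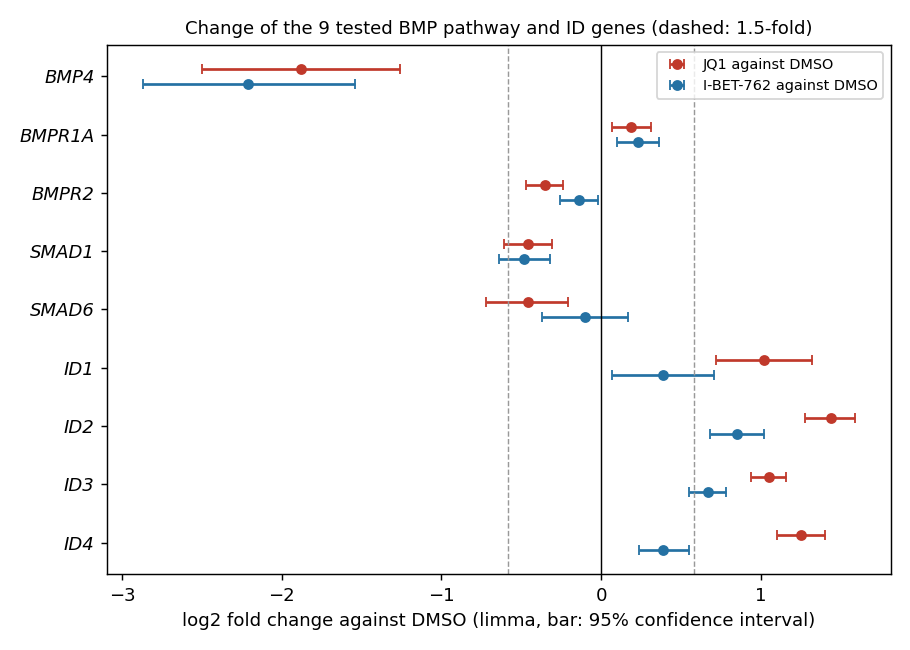
Log2 fold change against DMSO (horizontal axis) of the 9 tested genes with JQ1 (red) and I-BET-762 (blue), from limma; bars are 95% confidence intervals and dashed lines mark a 1.5-fold change. BMP4 lies at -1.88 and -2.21, the ID genes at 1.02 to 1.44 under JQ1 and 0.39 to 0.85 under I-BET-762, and the receptor and SMAD genes lie within the dashed lines.

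JQ1 and I-BET-762 were given at the same dose and for the same time, so the 1 pair of compounds could be compared at that dose. How strongly each inhibited BET proteins was not measured in these libraries. A difference between the compounds and a difference in strength of inhibition therefore cannot be told apart. Of the 9 genes, 2 were called, ID1 and ID4, both higher with JQ1, where 5.31% of all genes were called, 1.73% higher with JQ1 and 3.59% lower. With equal totals the share of calls that were higher moved from 32.5% to 17.8%. By adjusted p alone 6 of 9 passed, all 4 ID genes among them, beside 27.3% of all genes. ID4 was higher with JQ1 by 0.86 (SE 0.07, adjusted p = 6.90e-07) and was called under every alternative that kept this fold threshold.

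ID1 was higher with JQ1 by 0.63 (95% interval 0.33 to 0.93, adjusted p = 0.00385), but this call rested on the higher pair of libraries: the difference was 0.51 without library 17, 0.53 without library 19, 0.29 without both, and 0.54 with equal totals, each under the fold threshold. ID2 differed by 0.58 (95% interval 0.43 to 0.74, adjusted p = 4.15e-05), just under the threshold of 0.585 on the log2 scale, and was called at 0.59 to 0.64 when any of JQ1 libraries 17 or 20 or I-BET-762 libraries 21 or 22 was left out. ID3 differed by 0.38 (95% interval 0.28 to 0.49, adjusted p = 6.34e-05). For BMPR1A the difference was -0.04 (95% interval -0.16 to 0.08, adjusted p = 0.640).

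Levels of different genes can be set side by side only per length, here as normalized counts per kb of annotated exon. With DMSO the order was ID3 (16363 ± 135, SD, n = 3), ID1 (11305 ± 710.5), ID2 (4265 ± 335), ID4 (1252 ± 87.1), BMPR1A (647 ± 30.6), BMPR2 (289 ± 3.70), SMAD1 (149.6 ± 9.42), SMAD6 (119 ± 11.9) and BMP4 (45.4 ± 2.02), with BMP2 at 0. The libraries of neighbouring genes in this order did not overlap. With JQ1 the first 6 places were the same, from ID3 (33897 ± 1639, n = 4) and ID1 (23565 ± 6297) to ID2 (11565 ± 1177) and ID4 (2983 ± 292). With JQ1, SMAD1 and SMAD6 (96.3 to 117 and 68.9 to 107 per kb) overlapped. With I-BET-762 they overlapped too (104 to 111 and 104 to 115 per kb). The exon length counts all annotated transcripts, and which of them the cells used is not known from these values.

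Summed over ID1 to ID4, the level was 33185 ± 1199 normalized counts per kb with DMSO (SD, n = 3), 72009 ± 7464 with JQ1 (n = 4) and 50109.7 ± 709 with I-BET-762 (n = 3). ID3 made up 43.1% to 53.1% of this sum in every library and ID4 at most 4.48%. The share of ID1 was 33.0% to 34.9% with DMSO, 38.2% and 35.8% in JQ1 libraries 17 and 19, 28.0% and 27.3% in libraries 18 and 20, and 28.5% to 30.7% with I-BET-762. The E protein genes TCF3, TCF4 and TCF12, whose products ID proteins bind, summed to 1653 to 1677 per kb with DMSO, 1036 to 1242 under JQ1 and 1164 to 1213 under I-BET-762. The ratio of the sums was 19.9 ± 0.794 with DMSO, 62.1 ± 3.12 with JQ1 but 42.0 ± 1.08 with I-BET-762, and the 3 groups did not overlap. These are sums of RNA per length over chosen genes and carry no test. TCF4 was divided by 29.2 kb of annotated exon, against 6.37 kb for TCF3 and 9.45 kb for TCF12. The weight of TCF4 in the E protein sum, and the sizes of the sums and ratio, therefore depend on the annotation.

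**Figure D3:**
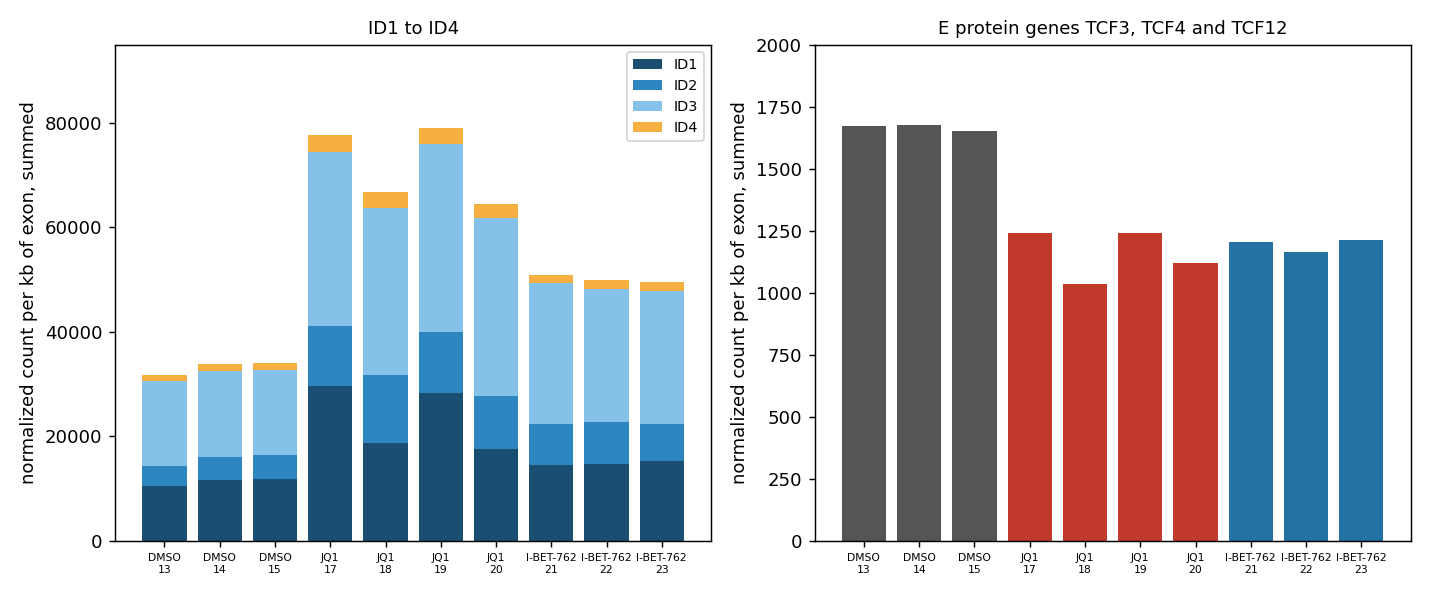
Normalized counts per kb of exon in each library (bars, from 0), with ID1 to ID4 stacked on the left and the sum of TCF3, TCF4 and TCF12 on the right; the scales of the panels differ. The ID sum runs from 31801 to 33927 with DMSO and from 64445 to 79091 with JQ1, while the E protein sum is highest in the 3 DMSO libraries.

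Of 71 further genes listed for the pathway and for the partners of ID proteins, 65 had a value and 46 were tested. With JQ1, 27 of the 46 were called (8 higher, 19 lower, median difference -0.29), and with I-BET-762 21 were called (6 higher, 15 lower, median -0.34), beside the 36.1% and 26.9% of all genes given above. The 2 comparisons share the DMSO libraries. The counts were 28 and 24 with equal totals, where 36.7% and 27.3% of all genes were called.

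Among the 8 other ligands tested, 6 were called with JQ1 (2 higher, 4 lower) and 5 with I-BET-762 (3 higher, 2 lower). Of all genes, 36.1% were called with JQ1 (13.3% higher, 22.8% lower) and 26.9% with I-BET-762 (8.96% higher, 17.9% lower). One of the ligands called higher, BMP6, could be tested only through treated libraries, where it was high, so its calls give no independent support. BMP6 had 1.85 to 3.64 normalized counts with DMSO, 19.3 to 28.0 under JQ1 and 7.87 to 13.0 under I-BET-762, and rose by 2.78 (SE 0.35) and 1.61 (SE 0.37) on the log2 scale, sizes that depend on the pseudocount since its DMSO libraries had 2 to 4 reads. GDF7 went the other way, from 80.5 ± 4.29 normalized counts with DMSO (SD, n = 3) to 8 to 11 reads per library with JQ1 and a mean of 12.9 ± 2.66 normalized counts with I-BET-762 (n = 3). BMP7, a kidney and bone ligand, fell by 1.09 under JQ1 and 1.27 under I-BET-762. BMP5 fell by 1.11 with JQ1, and differed by -0.39 with I-BET-762, which is under the threshold. GDF6 fell by 1.02 with JQ1 and differed by -0.51 (adjusted p = 0.177) with I-BET-762. BMP8A rose by 1.55 and 1.78, and BMP8B differed by 0.54 with JQ1 and rose by 0.79 with I-BET-762. BMP8A and BMP8B are near-identical copies between which reads can be split, so the split between them is uncertain.

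Of the 6 other receptors and coreceptors tested, 4 were called with each inhibitor, 2 in each direction, beside 36.1% and 26.9% of all genes. The activin type II receptors parted. ACVR2A rose by 1.41 under JQ1 and 1.17 under I-BET-762, and ACVR2B fell by 1.24 and 0.83. RGMB, a coreceptor for BMP ligands, rose by 1.05 and 0.74. ACVRL1, an endothelial type I receptor for BMP ligands of the blood, had 16.5 normalized counts with DMSO. No treated library had more than 3 of its reads. With every treated library set to 3 reads, ACVRL1 was 5.23-fold lower with JQ1 and 5.56-fold lower with I-BET-762. These folds leave out the error of the DMSO mean, and their order follows the scaling of the libraries. Since ACVRL1 could be tested only through its DMSO libraries, where it was high, its calls give no independent support.

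The list of extracellular antagonists and decoys had 10 tested members, not all of which keep ligands from receptors, so its counts and medians do not measure antagonism. With JQ1 6 fell and 2 rose (median -0.68), and with I-BET-762 5 were called, each of them lower (median -0.55). The shares of all genes called lower were 22.8% and 17.9%, and called higher 13.3% and 8.96%. CHRD (chordin) had 170.1 to 176 normalized counts with DMSO, 33.7 to 38.0 under JQ1 and 41.3 to 50.2 under I-BET-762. NOG (noggin) fell by 0.76 with I-BET-762 and differed by -0.54 with JQ1, where it was called without library 17 or 19 or with equal totals. NBL1 fell by 0.65 and 0.60, the latter lost at -0.57 to -0.58 when DMSO 13, DMSO 14 or I-BET-762 22 was left out. FSTL1 fell by 0.71 with JQ1, and KCP, which binds BMP ligands outside the cell, fell by 0.99 there. BMPER was at no more than 3 reads in every treated library. With each of these set to 3 reads, it was 4.24-fold lower with JQ1 and 4.50-fold lower with I-BET-762. These folds leave out the error of the DMSO mean. Their order follows the scaling of the libraries, since BMPER had 2 reads over all JQ1 libraries and 5 over all I-BET-762 libraries. DAND5 had 21.3 to 28.2 normalized counts with DMSO and at most 4 reads per JQ1 library, and was called lower with both inhibitors. BMPER and DAND5 could be tested only through their DMSO libraries, where they were high, so their calls give no independent support. BAMBI, a decoy receptor, rose by 1.13 with JQ1 (70.7 to 95.2 normalized counts with DMSO, 166 to 177 with JQ1) and differed by 0.35 with I-BET-762 (adjusted p = 0.0531). CRIM1 rose by 0.60 with JQ1, a call lost with both rescalings and without DMSO 14 or JQ1 20.

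Of 10 other SMADs and regulators tested, 3 passed under JQ1 and 2 under I-BET-762. Neither is a higher share than the 36.1% and 26.9% of all genes called. SMAD9, the third receptor-activated SMAD of this branch, fell 3.48-fold and 2.82-fold, from 194 to 202 normalized counts with DMSO to 41.6 to 83.0 and 67.9 to 70.9. CTDSP1, a phosphatase that acts on SMADs, fell by 1.01 and 0.69. SKI, a co-repressor of SMAD complexes, rose by 0.92 with JQ1 and differed by 0.52 with I-BET-762. SMAD5 and SMAD4, which with SMAD1 form the core of the pathway, differed from DMSO by 0.05 to 0.21, and the inhibitory SMAD7 by 0.28 (adjusted p = 0.0897) and 0.17 (adjusted p = 0.355).

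Of 5 other BMP target genes tested, 1 rose and 1 fell with each inhibitor. Of all genes, 13.3% rose and 22.8% fell with JQ1, and 8.96% and 17.9% with I-BET-762, so these counts are near those shares. MSX2, a homeobox target, rose 2.83-fold under JQ1 and 1.80-fold under I-BET-762 (35.8 to 42.8 normalized counts with DMSO, 102 to 122 and 62.0 to 79.2 in treated libraries). RUNX2, the osteoblast regulator, fell by 0.96 and 0.95. ATOH8 differed by -0.52 under JQ1 and 0.12 under I-BET-762, and MSX1 by 0.09 and -0.28. Like SMAD6, ATOH8 was lower with JQ1 than with I-BET-762, here by -0.64 (adjusted p = 1.44e-05).

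Among the basic helix-loop-helix partners of ID proteins and related factors, 7 were tested. Of these, 4 fell in JQ1 libraries and 3 in I-BET-762 libraries, beside 22.8% and 17.9% of all genes. TCF4, an E protein gene, fell by 1.38 under JQ1 and 0.89 under I-BET-762, from 7537 to 7787 normalized counts with DMSO to 2823 to 3120.4 and 4094 to 4172. TCF12 fell by 0.70 with JQ1 and differed by -0.50 with I-BET-762. TCF3 differed by -0.28 and -0.38, under the threshold. TWIST2 fell by 1.27 and 1.43, and HAND2 by 1.62 and 1.47.

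**Figure D4:**
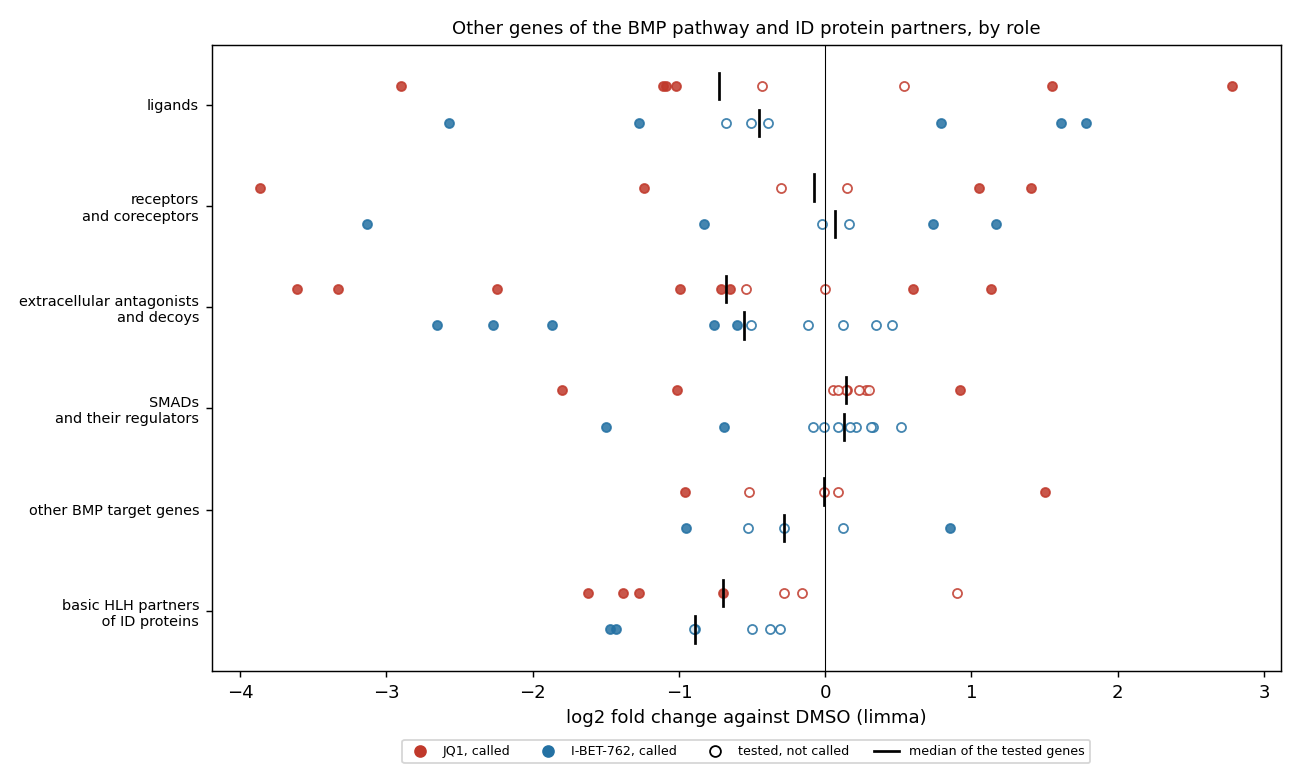
Log2 fold change against DMSO (horizontal axis, limma) of the 46 other tested genes by role, with JQ1 in red above and I-BET-762 in blue below in each row; filled points were called, open points were not, and black ticks are medians. All called points of the basic helix-loop-helix row lie left of 0, while ligands and receptors lie on both sides; the leftmost points of receptors (ACVRL1) and antagonists (DAND5 and BMPER) rest on treated libraries near 0 reads, so their size depends on the pseudocount.

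Between the inhibitors, 7 of the 46 were called (4 higher with JQ1, 3 lower), beside 5.31% of all genes (1.73% higher, 3.59% lower). BMP6, BAMBI, MSX2 and HAND1 were higher with JQ1, by 1.17, 0.78, 0.65 and 1.79 on the log2 scale, and ATOH8, BMP5 and KCP were lower, by -0.64, -0.72 and -0.88. HAND1 had at most 12 reads per library, and between 1 and 4 after I-BET-762 treatment. Since HAND1 and BMP6 could be tested only through their JQ1 libraries, where they were high, their calls give no independent support. The BMP6 difference lost its call without JQ1 library 19 or I-BET-762 library 21 or 23, that of MSX2 without I-BET-762 library 23 (0.54), that of HAND1 without I-BET-762 library 21 (1.47), and that of ATOH8 without JQ1 library 18 (-0.57).

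To see which genes followed the ID genes most closely, log2 profiles centred on the DMSO mean were compared over the 10 libraries by their root mean square difference. RPL13, a ribosomal protein gene, was nearest to ID1 (0.11). TFRC, the transferrin receptor, and ELL2, an elongation factor, were nearest to ID2 (0.09 and 0.10). PARD6G-AS1 and CTU2 were nearest to ID3 (0.05 and 0.06), and ETV4 and SLC66A3 to ID4 (0.12 and 0.13). No ID gene was among the 2 nearest of another. The closest of the other ID genes was ID4 for ID1 (0.21), ID2 (0.29) and ID3 (0.22), and ID1 for ID4 (0.21). This likeness is a description over libraries that share 3 treatments.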

How the data were processed

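The authors trimmed strand-specific total RNA reads with Trimmomatic after FastQC 0.73, aligned them to hg38 with HISAT2 2.2.1, counted them with featureCounts 2.0.3 on Gencode and normalized the counts with DESeq2, per the labels and the study's methods, which also state that outlying samples were left out. The deposited unit is log2(normalized count + 1), as worked out from the values. Whole reads were recovered from the steps of the values (99.73% to 99.77% whole per library, tolerance 0.01), and rows of all 22784 symbols were used.

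Genes with at least 10 normalized counts in at least 3 libraries (14839) were tested with limma 3.58.1 (R 4.3.3) with an intensity trend in 1 model of the 10 libraries, with Benjamini-Hochberg adjustment over all genes tested. A call needed an adjusted p under 0.05 and a fold change over 1.5. The study used count-based tests, and limma was chosen because the deposited unit is log2. The fit was tested on simulated data. Fold changes are on the log2(normalized count + 1) scale, which understates changes of low genes.

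The 10 genes, the gene lists and the tests were chosen with earlier results of these data known. Named in the text are the 10 genes, list genes called in at least 1 of 3 comparisons, and the 2 genes nearest in profile to each ID gene, of which 1 is not reported here; SMAD4, SMAD5, SMAD7, MSX1 and TCF3 are named as well to complete their families, chosen after their values were seen. Alternatives changed the pseudocount (0.5 or 5), the filter, the scaling, the trend, the libraries, the fold threshold and the test (limma-voom on recovered reads). Leaving out JQ1 libraries 18 and 20, or 17 and 19, together was chosen after seeing the data. Exons came from Gencode V44, promoter sequence from RefSeq (GRCh38.p14) for 9 of the 10 genes, BMP2 having no entry used here. Python 3.11.15 was used for the tables.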

Additional observations from a re-analysis of the deposited data

Results flagged for a closer look

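Among 41 sets of 4 JQ1 values checked for a library far from the others (Dixon's test at the 95% level, which chance passes in about 1 in 20 groups), 4 stood apart. BMPR1A had 8317 normalized counts in JQ1 library 18 against 7132 to 7193 in the others, and ACVR2A had 662 in the same library against 577 to 590.1. CTDSP1 had 1567 in JQ1 library 20 against 1361 to 1374. ACVRL1 had 1.10 normalized counts, 1 read, in JQ1 library 17 and 0 in the others. Groups of 3 libraries were not checked.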

How the results depend on the processing

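Over the alternatives, 2293 values of single genes kept their direction and side of the threshold, 25 passed it, 23 lost it and 17 changed sign. Of the counts of called genes, 120 stayed within 1.5 times and 14 did not. With no fold threshold, the BMP and ID genes called were 9 with JQ1, 8 with I-BET-762 and 6 between the inhibitors. The other pathway genes were 33 with I-BET-762 and 20 between the inhibitors. The shares of all genes were 71.7%, 61.1% and 27.3%. With a fold change over 2, the BMP and ID genes called were 1 with I-BET-762 and 0 between the inhibitors. The other genes were 12 and 2, beside 14.2% and 1.39% of all genes. With a mean of at least 100 normalized counts, the other genes called were 16, 11 and 4, since fewer were tested. Of all genes passing that filter, 30.3%, 21.1% and 3.78% were called. Between the inhibitors, 1 BMP or ID gene was called with equal totals, and 1 to 3 when a library was left out, the 1 being without JQ1 library 19. The shares of all genes were 6.41% with equal totals and 4.07% to 5.91% with a library left out.

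Signs changed only where the difference was not called. Between the inhibitors, SMAD1 was -0.07 with equal totals, -0.03 with equal upper quartiles and -0.05 without JQ1 18 and 20. Without JQ1 17 and 19, BMPR1A was 0.02, BMP7 -0.04, NOG -0.11 and TWIST2 -0.12. Without JQ1 18 and 20, HAND2 was 0.05 and RUNX2 0.04. Leaving out 1 library at a time gave, between the inhibitors, -0.07 to 0.74 for BMP4, -0.02 to 0.08 for SMAD1 (-0.00 without I-BET-762 23), -0.46 to 0.33 for HAND2, -0.21 to 0.20 for RUNX2 and -0.01 to 0.27 for TWIST2, and -0.19 to 0.01 for KCP with I-BET-762. The cause was not tested. No paired analysis was possible because no replicate number is shared between the groups. Depth limits BMP2, BMP6, HAND1, ACVRL1, BMPER and DAND5, which lie near 3 reads in some groups.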
